A study of Mus musculus with 17 samples.

Results

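Heat shock proteins and their DNAJ partners are the chaperones that fold new proteins and rescue damaged ones. They were followed here through 17 RNA-seq libraries of mouse bile duct. The members were the protein-coding genes whose names begin with Hspa, Hspb, Hspd, Hspe, Hsph, Hsp90, Dnaja, Dnajb or Dnajc, together with Hsf1, Hsf2 and Bag3. This rule found 78 of the 43346 genes in the table, with 77 different names because Dnajc19 was listed under 2 identifiers. Of these, 71 had enough reads to be tested and 7 did not.

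The study concerned extrahepatic cholangiocarcinoma, a tumour that arises in the duct between liver and gut. All 17 samples form 1 group, bile duct of Mus musculus. The labels name no genotype, strain, allele, agent, time point, age or sex, and no control duct. No condition could be compared, so each level is given with its spread over the libraries. The columns of the table carry 6 codes, of which R63494 covers 2 libraries and the other five cover 3 each. What a code stands for is not stated there, and no column name matched a sample title. Libraries are therefore named by their columns, such as R63500_2. Whether libraries of 1 code are separate animals is not stated, so the p-values measure only the spread between these libraries, which may be technical.

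The libraries held 16400556 to 24152314 counts each (median 17886041). Levels are given as CPM, the count of a gene per 1e+06 reads in kept genes after TMM scaling, and levels of different genes are compared only as RPKM, which also divides by gene length. All 9 cholangiocyte markers, among them the keratin Krt19 and the surface protein Epcam, had counts in every library, and their summed level was 6319 to 9074 CPM. Pancreatic acinar markers summed to 5846 to 133004 CPM in R62850 and to 40.6 to 159 CPM elsewhere. Fibroblast markers summed to 1980 to 2152 CPM in R63494, 3176 to 4613 CPM in R62850, R63289 and R63496, and 6618 to 7985 CPM in R62848 and R63500. Y-linked genes had counts only in R62850 and R63494. In bulk tissue, fewer cells of a type and less RNA per cell cannot be told apart.

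Chaperones of the HSP70 family bind exposed hydrophobic stretches of unfolded proteins in a cycle driven by ATP. DNAJ proteins, also called HSP40, deliver the substrate and start ATP hydrolysis, and exchange factors such as the HSP110 and BAG proteins release the nucleotide. HSP90 acts later, on nearly folded clients such as kinases and steroid receptors, and small heat shock proteins hold unfolded chains without ATP. When unfolded proteins build up in the cytosol, the transcription factor HSF1 forms trimers on heat shock elements, inverted repeats of the unit GAA, and turns on the inducible genes. The mitochondrion and the endoplasmic reticulum (ER) hold chaperone sets of their own. The ER set is controlled by the unfolded protein response, in part through the ER stress element.

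The promoters of 7 members are printed as examples of these elements. They were chosen among members that hold one, and class leaders such as Hsp90aa1 and Hspd1 are not among them. Each line gives the 130 bases before the transcription start, 5′ to 3′ on the gene's strand, from RefSeq on GRCm38.p6. Capitals in the first 5 mark heat shock elements, written GAANNTTC or TTCNNGAA for 2 units, where N is any base. Capitals in the last 2 mark the ER stress element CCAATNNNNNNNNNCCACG on either strand.
Hspa1a, chr17:34972157-34972286, minus strand: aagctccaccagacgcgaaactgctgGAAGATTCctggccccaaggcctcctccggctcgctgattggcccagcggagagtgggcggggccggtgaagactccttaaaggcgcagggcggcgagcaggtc
Hspa1b, chr17:34959239-34959368, minus strand: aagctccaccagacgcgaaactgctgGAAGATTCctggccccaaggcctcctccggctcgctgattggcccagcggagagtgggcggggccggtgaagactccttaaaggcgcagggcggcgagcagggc
Hsph1, chr5:149636337-149636466, minus strand: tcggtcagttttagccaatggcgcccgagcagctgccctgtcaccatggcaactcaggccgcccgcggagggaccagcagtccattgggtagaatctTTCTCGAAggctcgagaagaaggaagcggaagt
Hspe1, chr1:55088018-55088147, plus strand: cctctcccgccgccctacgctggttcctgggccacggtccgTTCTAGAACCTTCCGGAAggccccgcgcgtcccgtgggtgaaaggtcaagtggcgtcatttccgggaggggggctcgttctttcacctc
Hspb1, chr5:135887789-135887918, plus strand: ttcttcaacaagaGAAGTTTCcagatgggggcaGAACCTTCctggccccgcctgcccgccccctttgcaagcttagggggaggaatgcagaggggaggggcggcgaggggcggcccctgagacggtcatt
Hspa5, chr2:34771960-34772089, plus strand: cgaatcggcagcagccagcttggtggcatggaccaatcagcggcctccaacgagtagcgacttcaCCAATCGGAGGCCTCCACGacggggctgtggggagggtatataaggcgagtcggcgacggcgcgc
Hsp90b1, chr10:86705445-86705574, minus strand: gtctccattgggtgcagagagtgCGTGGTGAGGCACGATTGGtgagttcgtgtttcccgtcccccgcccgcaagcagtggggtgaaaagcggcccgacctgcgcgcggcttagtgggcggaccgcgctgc

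RefSeq promoters of 300 bases, 250 before and 50 after the start, were at hand for 62 of the 77 names. The element of 2 units, which reads the same on both strands, was found in 7 of the 8 inducible genes with a promoter (87.5%), in 0 of 8 constitutive ones and in 17 of the 62 members (27.4%). Over 27025 genes with a promoter it was found in 16.97%. Dnajb1 was the inducible gene without it in this window. No promoter was at hand for Hsp90aa1 of the inducible class, nor for Hspa8 and Hsp90ab1 of the constitutive class. These genes were thus not searched. The element of 3 units, GAANNTTC followed by NNGAA or TTCNNGAA followed by NNTTC, searched on both strands and overlapping elements of 2 units, was found in Hsph1, Dnajb6, Hspd1 and Hspe1. It occurred in 0.662% of all promoters. In Hsph1 it reads TTCTGGAAAGTTC and begins at position 37 after the start. Hspd1 and Hspe1 stand head to head and share the element shown for Hspe1. The ER stress element was found in 3 members, Hspa5, Hsp90b1 and Dnajc3, all of the ER class of 12 with a promoter, and in 0.137% of all promoters. This motif was added after the sequences had been seen. Such matches are letters in a window and do not show binding.

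The inducible cytosolic genes varied most. Between the lowest and the highest library their levels differed by 2.31-fold to 70.8-fold, with a median of 6.38-fold, against a median of 1.93-fold over the 71 tested members and 1.96-fold over all 15795 tested genes. All 9 passed 2-fold, against 35 of the 71 members (49.3%) and 48.5% of all genes. The median SD of log2 CPM was 0.91 for the inducible class, 0.39 for the small heat shock proteins, 0.31 for the constitutive class, 0.28 for the other DNAJA and DNAJB genes, 0.23 for the mitochondrial class, 0.19 for the other DNAJC genes and 0.18 for the ER class. Over all tested genes it was 0.27. The highest level and the widest spread fell on different members. Hsp90ab1 had the highest median RPKM of the members (613) and an SD of 0.28, whereas Hspa1a had 9.34 RPKM and an SD of 2.31.

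**Figure D1:**
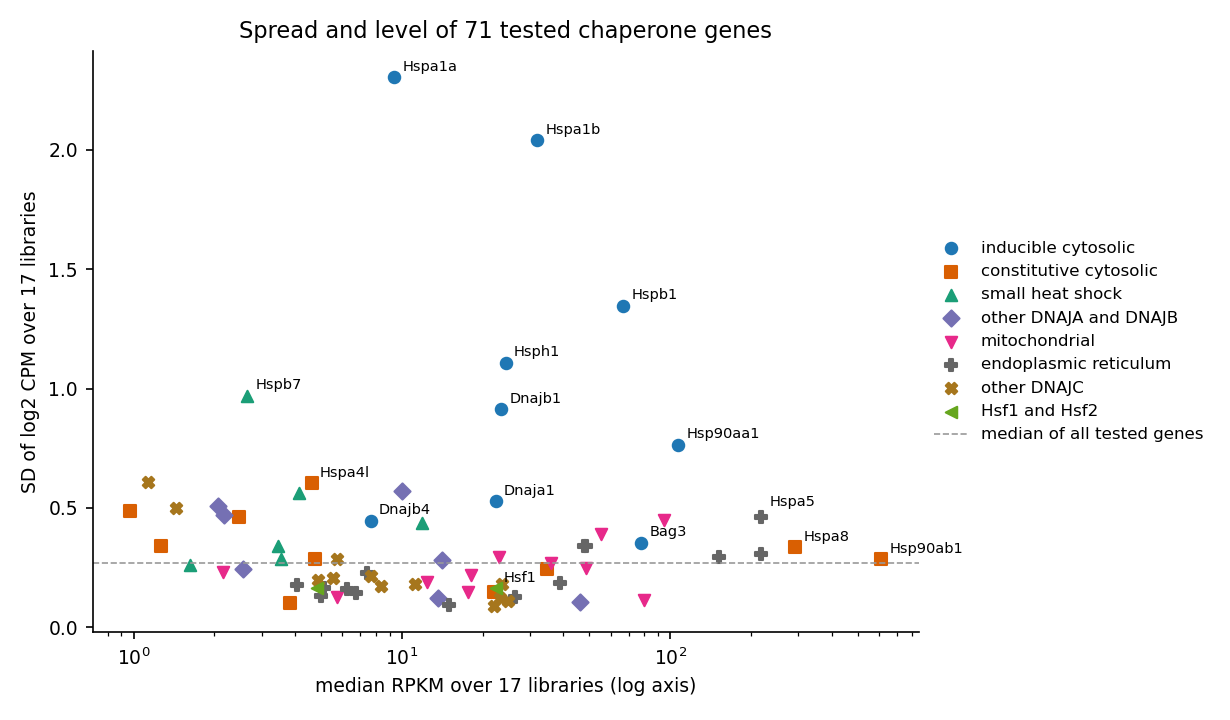
Median RPKM over 17 libraries (x, log axis) against the SD of log2 CPM over the same libraries (y) for the 71 tested members, with 1 point per gene, marked by class. Hspa1a, Hspa1b, Hspb1 and Hsph1 lie highest, at SDs of 1.11 to 2.31, and most other points lie near the dashed line, the median of all tested genes (0.27).

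Much of the spread followed the codes. In edgeR's quasi-likelihood F test, which asks whether libraries of different codes differ beyond the spread within codes, 40 of 71 tested members passed (56.3%, Benjamini-Hochberg adjusted p below 0.05), against 48.7% of all tested genes. All 9 inducible genes passed, and 31 of the other 62 (50%). The count of members is thus near the background outside the inducible class.

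The stress-inducible HSP70 genes Hspa1a and Hspa1b had the widest range of all members. They lie side by side on chromosome 17 (mm10, Hspa1a from 34969190 to 34972156, Hspa1b from 34956436 to 34959238). Hspa1b stood at 1290 and 1295 CPM in R63494, at 539, 520 and 532 CPM in R62850, at 82.2, 94.4 and 80.6 CPM in R62848, at 29.7, 26.6 and 33.4 CPM in R63289, and at 29.4, 29.8 and 29.1 CPM in R63496. In R63500 it stood at 89.6, 488 and 165 CPM. Libraries of 1 code thus lay close together in every code except R63500, in which R63500_2 was near the level of R62850. The codes R63289 and R63496 overlapped, and both lay below all other libraries.

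Hspa1a followed the same order. It reached 574 and 587 CPM in R63494 and 196 to 222 CPM in R62850, and it stood at 19.6 to 27.7 CPM in R62848, 8.30 to 9.08 CPM in R63289 and 8.81 to 12.4 CPM in R63496. The R63500 libraries had 31.5, 314 and 96.2 CPM. The highest library exceeded the lowest by 70.8-fold for Hspa1a and 48.7-fold for Hspa1b, and both differed between codes (edgeR quasi-likelihood F test, adjusted p = 5.57e-05 and 1.10e-05). Their coding sequences differ at 8 of 1923 aligned bases in GENCODE M21 (99.6% identity) and their 3′ UTRs are 70.4% identical over the aligned part, so reads of the coding part can belong to either copy. Their promoters differ at 4 of 300 bases. The ratio of Hspa1b to Hspa1a counts ran from 1.55 in R63500_2 to 4.12 in R62848_3, and how shared reads were counted is not stated. Hspa1a also overlaps Gm20481 on the other strand, which had a median of 8.89 CPM.

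**Figure D2:**
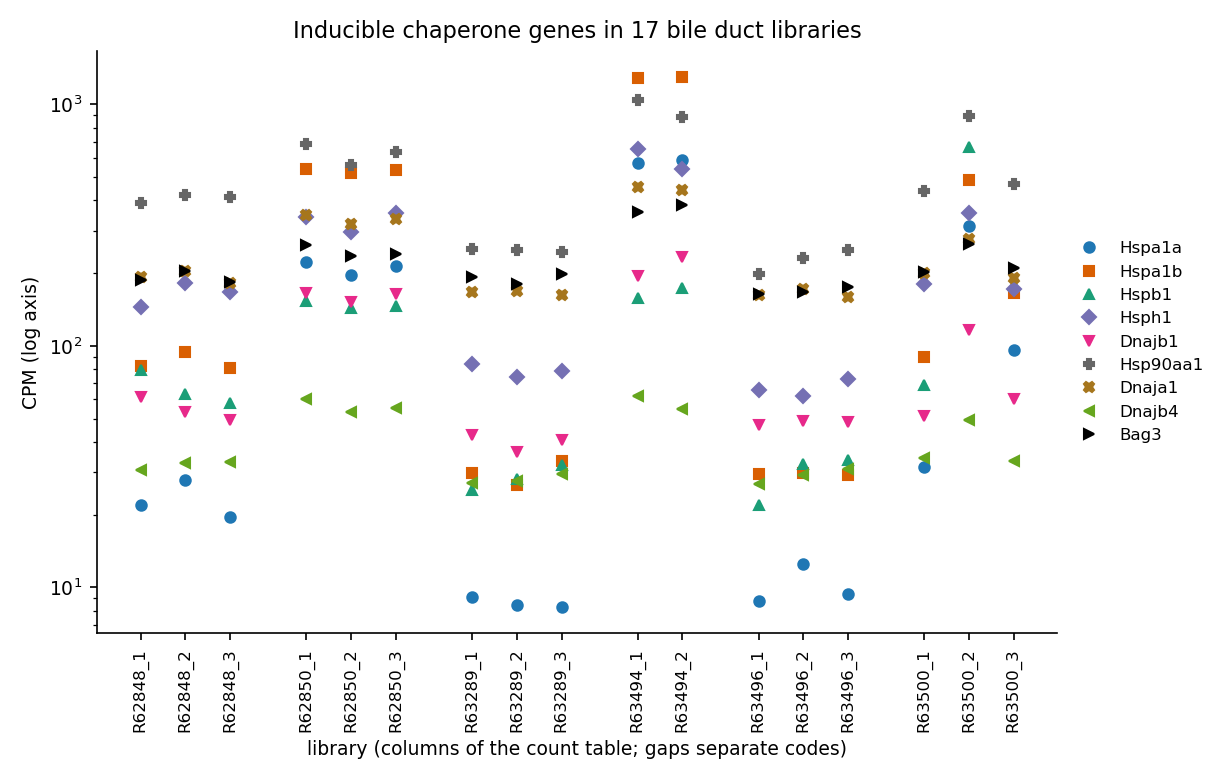
CPM (log axis) of the 9 inducible genes in each of the 17 libraries, with gaps between codes and 1 symbol per gene. Every gene is higher in R63494 and R62850 than in R63289 and R63496, and in R63500 the second library lies above the other two for all 9.

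The other inducible chaperones likewise lay higher in R63494 and R62850 than in R63289 and R63496, while the order within these pairs of codes varied. Hsph1, an HSP110 exchange factor for HSP70, had 651 and 540 CPM in R63494, 297 to 356 CPM in R62850, 144 to 182 CPM in R62848, 74.0 to 83.9 CPM in R63289 and 62.2 to 73.1 CPM in R63496, with 180, 355 and 172 CPM in R63500. Its highest library exceeded its lowest by 10.5-fold (edgeR adjusted p = 8.41e-07 between codes). Hsp90aa1, the inducible cytosolic HSP90, had 1046 and 888 CPM in R63494, against 199 to 251 CPM in the pool of R63289 and R63496, and 439, 894 and 469 CPM in R63500. The spread was 5.26-fold (edgeR adjusted p = 9.24e-06).

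Dnajb1, the main HSP40 partner of inducible HSP70, had 195 and 232 CPM in R63494, 152 to 165 CPM in R62850 and 36.4 to 61.5 CPM in all other libraries except R63500_2, which had 116 CPM. The range was 6.38-fold (edgeR adjusted p = 5.07e-06). Dnaja1, another cytosolic HSP40, spanned 159 to 453 CPM (2.86-fold, edgeR adjusted p = 1.03e-08). Dnajb4, a close relative of Dnajb1, spanned 26.9 to 62.2 CPM (2.31-fold, edgeR adjusted p = 1.44e-06). Its R62850 and R63494 libraries overlapped, at 53.4 to 60.5 and 54.9 to 62.2 CPM.

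Bag3 couples HSP70 to small heat shock proteins and to autophagy. It ran from 165 CPM in R63496_1 to 382 CPM in R63494_2, with a median of 202 CPM, and was steadier than the other inducible genes apart from Dnajb4 by fold (2.32-fold, edgeR adjusted p = 4.63e-07). Its R63496 libraries, at 165 to 175 CPM, lay below all others.

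Hspb1, the small heat shock protein HSP27, differed from this order in R63500. It stood at 158 and 174 CPM in R63494, 144 to 154 CPM in R62850, 57.9 to 79.7 CPM in R62848, 25.4 to 32.2 CPM in R63289 and 22.0 to 33.6 CPM in R63496. In R63500 it had 68.7, 669 and 178 CPM, so that R63500_2 was the highest of all 17 libraries. R63500_3 also lay above both R63494 libraries. The range was 30.4-fold, and the codes differed (edgeR adjusted p = 0.00271), although R63500 alone held values from the level of R62848 to above all other codes.

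R63494 held the highest libraries for more members than any other code. Both of its libraries lay above all others for 11 of 71 members (15.5%), against 4.43% of all tested genes: Hspa1a, Hspa1b, Hsph1, Dnajb1, Dnaja1 and Bag3 of the inducible class, Hsp90ab1, Hspa4l, Dnaja4, Dnajb2 and the ER gene Dnajb9. They lay below all others for 2 members (2.82%), Hspb2 and Dnajc18, against 5.62% of all genes. R62848 lay above all others for 4 (5.63%), against 2.87% of genes, namely Hspa5, Hsp90b1, Dnajb11 and Hspa12a. R63500 did so for 3 (4.23%), against 2.32% of genes, namely Hspa4, Hspb7 and Dnajc5, and R62850 for Dnajb13 alone (1.41%), against 2.41%. The count was 0 for R63289 and for R63496, against 0.734% and 0.823% of genes.

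At the low end, R63496 lay below all others for 5 members (7.04%), namely Hspa5, Dnajc3, Hspa4l, Hsph1 and Bag3, against 1.13% of genes. R63289 did so for Dnajb1, Dnaja4 and Hspe1 (4.23%), against 0.481%, and R62848 for Dnajc12 (1.41%), against 1.86%. It was 0 for R62850 and R63500, against 1.98% and 1.5% of genes. These shares were not tested against the background. R63494 and R62850, the codes whose libraries were all high in the inducible genes, were also those with counts of Y-linked genes, at 160 to 210 CPM summed, and without Xist above 5.92 CPM. R63494 had the lowest fibroblast marker sum and R62850 the acinar markers. The codes cannot be told apart from these features, and their part in the chaperone levels was not tested.

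As a class score, the mean log2 CPM of the 9 genes, the inducible class ran from 5.69 in R63496_1 to 8.56 in R63494_1, with a median of 6.63. The range equals 7.33-fold. By code the score was 8.54 to 8.56 in R63494, 7.82 to 7.97 in R62850, 6.66 to 8.17 in R63500, 6.48 to 6.63 in R62848, 5.74 to 5.85 in R63289 and 5.69 to 5.86 in R63496. Differences between codes made up 93.0% of its variance, and 92.4% and 87.4% of that of the ER and constitutive scores. The same span was 2.14-fold for the other small heat shock proteins, 1.56-fold for the other DNAJA and DNAJB genes, 1.54-fold for the constitutive class, 1.40-fold for the mitochondrial class, 1.35-fold for the ER class and 1.13-fold for the other DNAJC genes. The inducible genes took 0.467% of all counts in R63494_1 (95% Wilson interval 0.464% to 0.470%) and 0.0735% in R63496_1 (0.0723% to 0.0748%), with a median of 0.128%. These intervals cover counting error only.

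**Figure D3:**
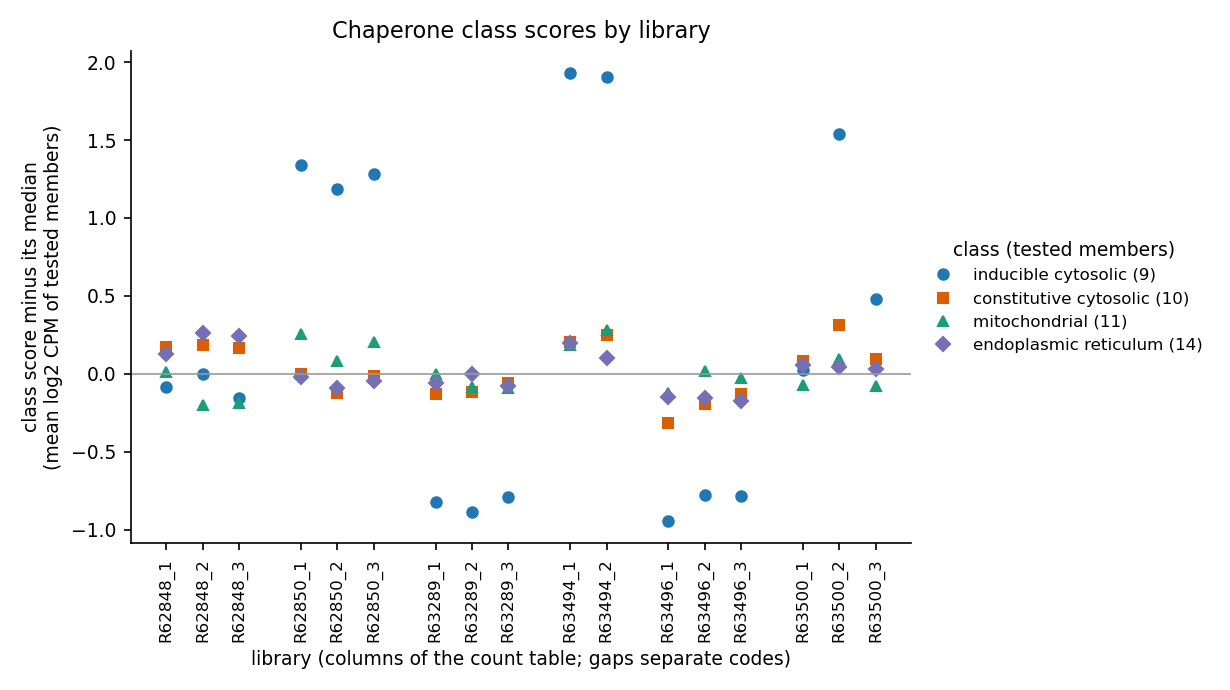
Class score (mean log2 CPM of the tested members) minus its median over 17 libraries, for 4 classes in each library, with gaps between codes. The inducible class moves from 5.69 to 8.56 around a median of 6.63, while the other three stay close to the zero line, with spans of 1.35-fold to 1.54-fold.

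The constitutive cytosolic class held the most abundant member per length and moved less than the inducible class. Hsp90ab1, the constitutive HSP90, had a median of 613 RPKM, followed by Hspa8, the constitutive HSP70 also known as HSC70, with 292 RPKM and Hspa4, an HSP110 exchange factor, with 34.9 RPKM. Hsp90ab1 lay between 1424 CPM in R63496_1 and 2745 CPM in R63494_1 (1.93-fold, edgeR adjusted p = 3.08e-06 between codes). Its libraries in R63494 (2745 and 2730 CPM) stood above those in R62850 (2170 to 2276 CPM), with R63289 and R63496 lowest at 1424 to 1626 CPM, the order seen for the inducible genes.

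Hspa8 ran from 853 CPM in R63496_1 to 1830 CPM in R63494_1, with a median of 1214 CPM (2.14-fold, edgeR adjusted p = 2.87e-05). Hspa4 had its high values elsewhere, at 226 to 282 CPM in R63500, and it was low in R62850, at 152 to 170 CPM (edgeR adjusted p = 6.08e-05). Hspa4l, a relative of Hspa4, spanned 4.27-fold, from 32.8 CPM in R63496_3 to 140 CPM in R63494_1 (edgeR adjusted p = 1.10e-08). It was high in R63494 (122 and 140 CPM) but low in R62850 (43.2 to 54.4 CPM), unlike the inducible genes.

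Hspa12a and Hspa12b encode distant HSP70 relatives at low levels. Hspa12a lay between 3.60 and 12.4 CPM (edgeR adjusted p = 0.000873), with R62848 highest at 9.22 to 12.4 CPM. Hspa12b, which in mouse is known mainly from endothelial cells, had 5.27 to 15.6 CPM (edgeR adjusted p = 0.00194), and the summed endothelial markers were also highest in R62848, at 338 to 367 CPM against 174 to 304 CPM elsewhere. Their part in this level was not tested. In all, 6 of the 10 constitutive genes passed (60%), against 48.7% of all tested genes, and Hspa14, Hspbp1, Hspa2 and Hspa1l did not, with adjusted p between 0.167 and 0.903 in the same edgeR test.

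Ratios within a library, which no scaling factor can move, compared inducible genes with their constitutive paralogues. In RPKM, Hspa1a plus Hspa1b over Hspa8 was 1.48 and 1.702 in R63494, 0.752 to 0.901 in R62850 and 0.0541 to 0.0656 in R63289 and R63496. It was 0.109, 0.764 and 0.286 in R63500 and 0.118 to 0.154 in R62848. The ratio of the counted reads thus passed 1 only in the R63494 libraries, and the range was 31.4-fold. If reads shared by the 2 inducible copies were dropped in counting, the ratio would be too low in every library. If they were counted for both copies, it would be too high. Its absolute level, and thus where it passes 1, is uncertain. The coding sequences of Hspa1a and Hspa8 are 75.2% identical, far less than those of the 2 inducible copies.

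Hsp90aa1 over Hsp90ab1 ran from 0.106 in R63496_1 to 0.325 in R63500_2, with a median of 0.175, so the inducible HSP90 stayed the minor form in all 17 libraries. Their coding sequences are 76.7% identical. Dnajb1 over Dnaja2, a constitutive cytosolic HSP40, ran from 0.354 in R63289_2 to 2.01 in R63494_2, with a median of 0.519. It exceeded 1 in R63494, in R62850 and in R63500_2.

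**Figure D4:**
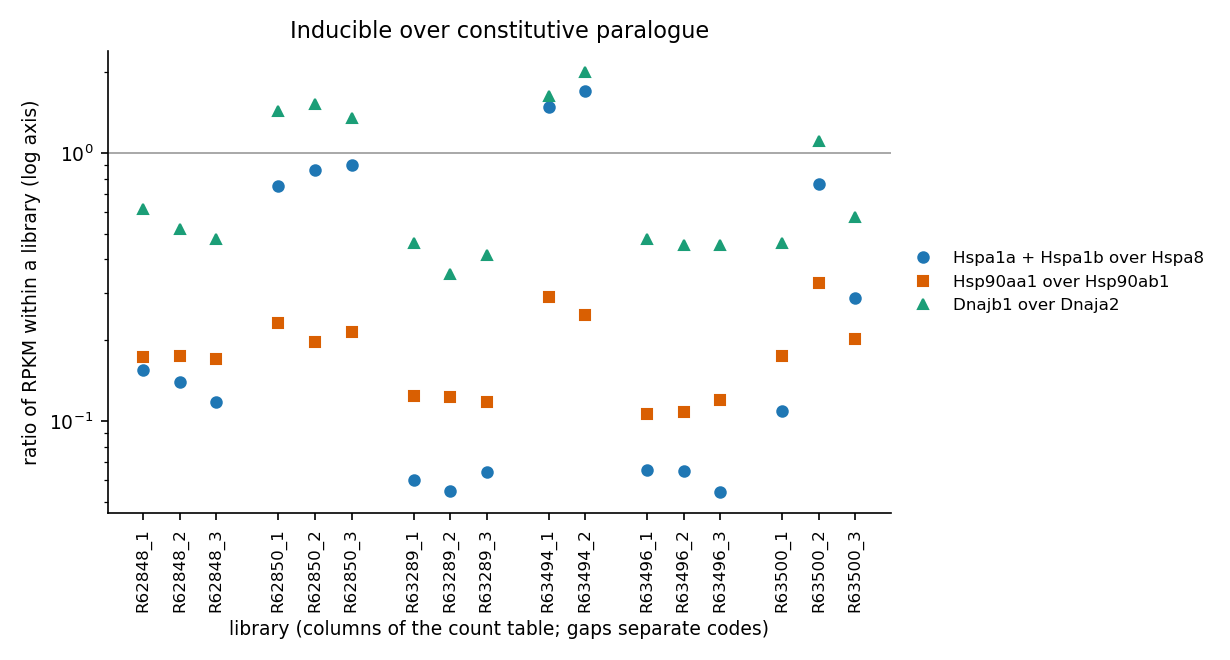
Ratio of RPKM within a library (log axis) for 3 pairs of inducible over constitutive paralogues in 17 libraries, with gaps between codes and a line at 1. The HSP70 ratio spans 31.4-fold and passes 1 only in R63494, and the HSP90 ratio spans 3.06-fold and stays under 1.

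Among the small heat shock proteins other than Hspb1, 4 of 6 tested genes differed between codes (66.7%), against 48.7% of all tested genes. Hspb8, which works with Bag3, was the most abundant per length (median 11.9 RPKM) and ran from 13.7 CPM in R63496_1 to 45.1 CPM in R63500_2 (edgeR adjusted p = 0.000644). Hspb7, best known from heart and skeletal muscle, had the widest range, 8.23-fold, with 23.4, 22.3 and 17.7 CPM in R63500 and 2.84 and 4.07 CPM in R63494 (edgeR adjusted p = 2.73e-06). It did not follow the inducible order, and R63494 was at its low end. The summed fibroblast markers were likewise low in R63494 and high in R63500. Striated muscle markers summed to at most 3.14 CPM, and Myh4 had no counts. The part of these cells in the Hspb7 level was not tested.

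Hspb2, another muscle member, was at 0.968 and 2.04 CPM in R63494 and at 2.43 to 5.83 CPM elsewhere (edgeR adjusted p = 0.026). Hspb6, also called HSP20, had 5.37 to 14.3 CPM (edgeR adjusted p = 0.0379). Hspb11, which despite its name is a part of the transport complex of cilia, had 4.58 to 11.8 CPM and did not pass (edgeR adjusted p = 0.177), nor did Hspbap1, a binding partner of HSPB1 (5.35 to 9.95 CPM, edgeR adjusted p = 0.464).

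Of the other cytosolic DNAJA and DNAJB genes, 3 of 7 tested passed (42.9%), against 48.7% of all tested genes. The most abundant per length was Dnaja2 (median 46.0 RPKM), which stayed between 117 and 152 CPM and did not pass (edgeR adjusted p = 0.115). Dnajb6, a suppressor of aggregation, stayed between 68.5 and 100 CPM (edgeR adjusted p = 0.307) although its promoter window held a heat shock element of 3 units. Dnaja4 moved with the inducible genes: 74.1 and 72.5 CPM in R63494, 47.4 to 55.1 CPM in R62850, 21.1 to 23.2 CPM in R63289 and 24.96 to 26.7 CPM in R63496 (3.51-fold, edgeR adjusted p = 1.28e-07). In R63500 it had 33.6, 52.9 and 35.7 CPM, again highest in R63500_2.

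Dnajb2, which carries ubiquitin-binding motifs, ran from 47.0 to 103 CPM with R63494 highest (75.4 and 103 CPM, edgeR adjusted p = 0.00151). Dnajb13, an axonemal protein of cilia and sperm, had 3.72 to 7.09 CPM in R62850 and 1.22 to 3.56 CPM elsewhere. Its adjusted p was 0.0493 in the same edgeR test, at the edge of the threshold. The ciliated cell markers Foxj1, Tppp3, Cfap52 and Rsph1 summed to 9.19 to 18.4 CPM in R62850 and 15.02 to 31.7 CPM elsewhere.

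Mitochondrial chaperones gave a split picture. Hspd1 and Hspe1, which encode the folding chamber HSP60 and its lid HSP10, varied more than the others: Hspd1 ran from 160 CPM in R63496_1 to 516 CPM in R63500_2 (3.23-fold, edgeR adjusted p = 0.00157) and Hspe1 from 59.0 CPM in R63289_2 to 148 CPM in R63500_2 (2.52-fold, edgeR adjusted p = 0.000915). In R63494 the pair stood at 383 and 365 CPM for Hspd1 and 123 and 122 CPM for Hspe1. Hspa9, the mitochondrial HSP70 mortalin, had a median of 79.8 RPKM against 94.6 for Hspd1 and stayed between 273 and 371 CPM (edgeR adjusted p = 0.0751). The Hspd1 and Hspe1 genes overlap by 112 bases on opposite strands, and the counting is not stated to use strand.

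Of the 11 mitochondrial rows, 5 passed (45.5%), against 48.7% of all tested genes. Besides Hspd1 and Hspe1 these were Dnajc4 and both Dnajc19 rows, which overlap by 3769 bases and share reads. Dnajc4 had 29.0 to 34.0 CPM in R62850 and 16.4 to 19.2 CPM in R62848 (edgeR adjusted p = 0.000294), and these codes held its highest and its lowest library. Dnaja3, the mitochondrial partner of Hspa9, stayed between 59.2 and 86.6 CPM (edgeR adjusted p = 0.0767). The rest, Dnajc11, Dnajc15, Dnajc28 and Dnajc30, spanned 1.36-fold to 2.09-fold and did not pass, with adjusted p between 0.193 and 0.526 in the same edgeR test.

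The leading ER chaperones differed between codes in another order than the inducible genes. Hspa5, the ER HSP70 known as BiP, stood at 1354, 1670 and 1558 CPM in R62848, 1194 and 1148 CPM in R63494, 1141, 1162 and 1045 CPM in R63500, 921, 803 and 846 CPM in R62850, 738, 759 and 714 CPM in R63289 and 579, 632 and 654 CPM in R63496. It was highest in R62848, where the inducible genes were in the middle, and in R62850 it lay below its level in R63500. The range was 2.88-fold, and 97.0% of its variance lay between codes (edgeR adjusted p = 1.19e-08), against a median of 61.4% over all tested genes. Within R63500, where Hspa1b spanned 89.6 to 488 CPM, Hspa5 spanned 1045 to 1162 CPM.

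Hsp90b1, the ER HSP90 also called GRP94, had nearly the same median level per length as Hspa5 (218 RPKM each) and the same leading code: 1145 to 1363 CPM in R62848, 978 to 1088 CPM in R63494 and 658 to 778 CPM in R63496 (edgeR adjusted p = 4.09e-06). Dnajc3, an ER inhibitor of the kinase PERK that also serves Hspa5 as a partner, likewise had its 2 highest libraries in R62848 (383 and 364 CPM) and its lowest in R63496 (177 to 184 CPM, edgeR adjusted p = 6.22e-06). These were the 3 members with the ER stress element. Dnajb11 was also highest in R62848 (147 to 167 CPM, edgeR adjusted p = 0.000502), and R62848 had, with R63500, the highest fibroblast marker sums, whose part was not tested.

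Other ER members went their own ways. Dnajc10, a disulfide reductase that helps ER-associated degradation, had 953 to 1108 CPM in R63289, the code of its highest library, and was lowest in R63500_2 (510 CPM, edgeR adjusted p = 0.000745). In R63289 it was thus high where Hspa5 was low. Dnajb9 was highest in R63494 (151 and 115 CPM, edgeR adjusted p = 1.54e-05). In all, 9 of the 14 ER genes passed (64.3%), against 48.7% of all tested genes, and Dnajb12, Dnajb14, Dnajc1, Dnajc18 and Dnajc25 did not, with ranges of 1.23-fold to 1.61-fold.

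**Figure D5:**
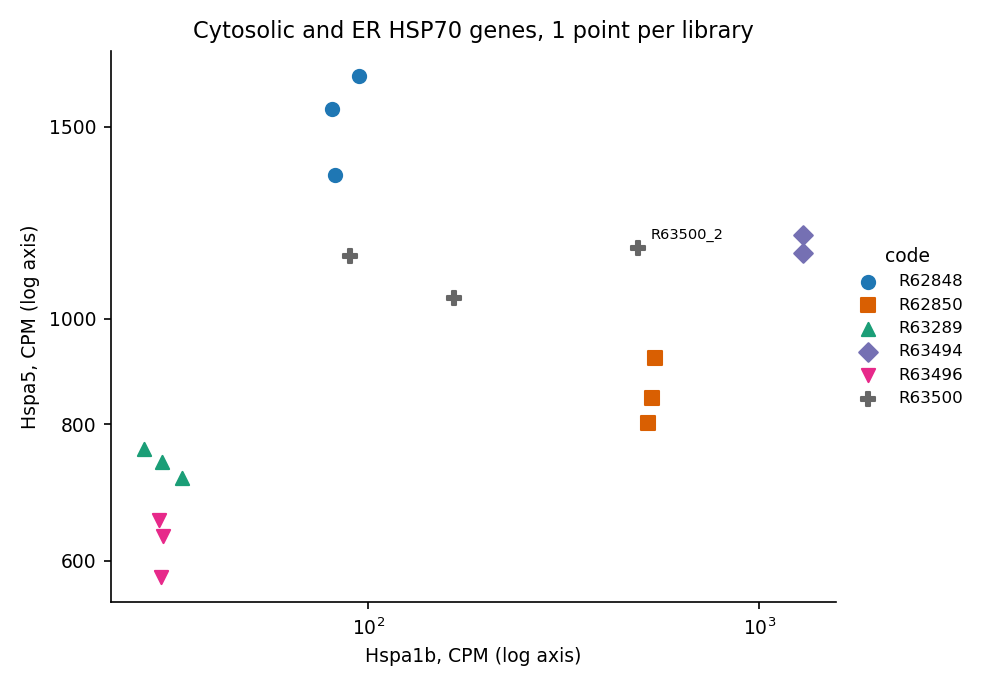
CPM of Hspa1b (x, log axis) against CPM of Hspa5 (y, log axis), with 1 point per library, marked by code. Hspa5 is highest in R62848, at 80.6 to 94.4 CPM of Hspa1b, and R63494 with 1290 and 1295 CPM of Hspa1b has lower Hspa5.

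The other DNAJC proteins bring HSP70 to particular jobs, such as vesicle uncoating, splicing or endosome traffic, and had the class score with the narrowest span, 1.13-fold. Of the 12 tested genes 3 passed (25%), against 48.7% of all tested genes. The most abundant per length were Dnajc8, a splicing-associated member (24.9 RPKM, 55.3 to 75.2 CPM, edgeR adjusted p = 0.401), Dnajc22 (31.6 to 50.1 CPM, edgeR adjusted p = 0.0387) and Dnajc5, the cysteine string protein of secretory vesicles (143 to 203 CPM, edgeR adjusted p = 0.0505).

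Wider ranges came from genes with few reads. Dnajc12 stood at 2.11 to 2.45 CPM in R62848 and 2.47 to 2.48 CPM in R63500, and at 3.16 to 6.38 CPM elsewhere (edgeR adjusted p = 0.00279). Dnajc27 ran from 1.75 to 8.14 CPM but differed as much within R62850 (1.75, 6.38 and 1.99 CPM) as between codes, and did not pass (edgeR adjusted p = 0.110). Dnajc13, an endosomal member, had 44.7 to 84.1 CPM and passed (edgeR adjusted p = 0.000739). Dnajc7, a co-chaperone of both HSP70 and HSP90, had the smallest SD of all tested members, 0.09, at 97.0 to 123 CPM.

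The 7 untested members were near silent. Dnajc5g had no counts in any library, and Dnajc5b had 1 count in all. Dnajb8, Hspb3, Dnajb3, Hspb9 and Dnajc6 had 5, 27, 67, 77 and 186 counts summed over the 17 libraries. Several are known from testis, brain or muscle. Dnajb3 lies inside the Ugt1a locus, so reads of those genes may be among its few.

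The transcription factors themselves changed little. Hsf1, the main regulator of the heat shock response, ran from 37.8 CPM in R63289_3 to 55.6 CPM in R63500_2 (1.47-fold, edgeR adjusted p = 0.0124), with 54.1 and 52.4 CPM in R63494 and 40.1 to 44.6 CPM in R62850. R62850 thus had low Hsf1 beside high inducible genes. Hsf2 ran from 10.5 to 15.6 CPM and did not pass (edgeR adjusted p = 0.189). RNA levels do not show the activity of HSF1, which is controlled on the protein.

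Within codes, the inducible genes moved together in R63500. Against the mean log2 CPM of the other libraries of its code, R63500_2 was higher by 2.59 for Hspb1, 2.51 for Hspa1a, 2.003 for Hspa1b, 1.06 for Dnajb1, 1.01 for Hsph1, 0.98 for Hsp90aa1, 0.54 for Dnajb4, 0.50 for Dnaja1 and 0.36 for Bag3. All 9 went the same way. Outside this code no inducible gene differed by more than 1 log2 unit from the other libraries of its code. The fibroblast collagen genes Col1a1 and Col3a1 were also at their highest in R63500_2, at 3260 and 3663 CPM, as were the keratins Krt7, Krt8 and Krt18. The part of these in the chaperone levels was not tested.

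The inducible score was set against 8 other measures after centring each on its code, with exact permutation within codes over 15552 orders and adjustment over the 8. Of the 4 chaperone classes set against it, the constitutive score followed it most closely (r = 0.797, exact permutation adjusted p = 0.018; rho = 0.828, exact permutation adjusted p = 0.052). It did not pass in both, and r was 0.479 without R63500_2. Over the single genes of the constitutive class, r ran from -0.35 (Hspa14) to 0.678 (Hspa12a). It was 0.052 for Hspa8 and 0.577 for Hsp90ab1, with no p. For the mitochondrial score r was 0.525 (exact permutation adjusted p = 0.112; rho = 0.534, exact permutation adjusted p = 0.218), and 0.239 without R63500_2. For the ER score r was -0.014 (exact permutation adjusted p = 0.918; rho = 0.157, exact permutation adjusted p = 0.723).

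The immediate early genes, which respond to tissue handling among other stimuli, had an r of 0.863 with the inducible score (exact permutation adjusted p = 0.0849) and a rho of 0.571 (exact permutation adjusted p = 0.218). The remaining relations, with the other DNAJC genes (r = 0.335, rho = 0.150), the cold-inducible genes (r = -0.349, rho = -0.358), Hsf1 (r = 0.304, rho = 0.025) and the library total (r = -0.285, rho = -0.282), had exact permutation adjusted p of 0.431 or more in r and 0.472 or more in rho. None of the 8 passed in both measures. Without the 2 libraries farthest from the median of the inducible deviations, R63500_1 and R63500_2, r was 0.786 for the constitutive score, 0.453 for the mitochondrial score, 0.088 for the ER score and 0.479 for the immediate early genes. It was -0.238 for the other DNAJC genes, 0.039 for the cold-inducible genes, -0.198 for Hsf1 and 0.078 for the library total. The last 4 and the ER score thus changed sign without these libraries. The ER r stayed near 0 with and without them.

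Outside the members, the genes whose deviations within codes were most like the inducible score were Phlda1 (r = 0.942), Sfn, Ccrn4l, Nars, Anxa2, S100a10, Emp1, Pvr, Plaur and Il33 (r = 0.914), over 17 libraries and at a median CPM of at least 10. These values are a description with no p. Without R63500_2 their r was 0.503 to 0.727, and the leading genes were others, beginning with Lrrc56 (r = 0.830). Among the members outside the inducible class, Hspd1 (r = 0.929), Hspe1 (0.915) and Dnaja4 (0.882) were most alike, and Dnajc28, a little-studied mitochondrial DNAJC, was least (r = -0.874). These r include R63500_2, and their values without it are not given. In that library Hspd1 lay 0.93 and Hspe1 0.82 log2 units above the other R63500 libraries, and Dnajc28 had its lowest level (4.34 CPM).

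The wider chaperone network was read from a list of 38 co-chaperones, chaperonin subunits and stress genes. In edgeR's test 29 of the 38 differed between codes (76.3%), against 48.7% of all tested genes, but their spread was small, with a median range of 1.61-fold against 1.96-fold. The 3 highest per length were the stress-linked polyubiquitin gene Ubb (363 RPKM, 544 to 847 CPM, edgeR adjusted p = 0.000568), the HSP70 exchange factor Bag1 (245 to 410 CPM, edgeR adjusted p = 0.000232) and the HSP90 co-chaperone Fkbp4 (229 to 529 CPM, edgeR adjusted p = 2.26e-06). Fkbp4 was highest in R63494_2.

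Among those with the largest SD, a pair pointed in different directions. Serpinh1, the collagen chaperone HSP47, was lowest in R63494_1 (135 CPM) and highest in R63500_2 (621 CPM, edgeR adjusted p = 3.94e-07), as was the collagen gene Col1a1 (431 and 3260 CPM). Fkbp5, a co-chaperone induced by steroids, was highest in R62848_1 (79.4 CPM) and lowest in R63289_2 (20.5 CPM, edgeR adjusted p = 2.05e-07). Chosen after their values were seen, the HSP90 co-chaperones Chordc1 (33.0 to 149 CPM), Cacybp (29.1 to 112 CPM) and Stip1 (78.0 to 229 CPM) had their lowest library in R63496_1 and their highest in R63494, as Hsp90aa1 did. Not all co-chaperones of the list did so. Cdc37 was lowest in R62848_2 (103 CPM) and highest in R62850_2 (162 CPM), and Ppid was highest in R63500_2 (69.1 CPM).

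Of the 8 immediate early genes, 6 passed between codes in edgeR's test (75%), against 48.7% of all tested genes. Fosb ranged most, from 0.872 CPM in R63289_2 to 21.9 CPM in R63500_2. R63494 and R62850 did not stand out in this list, with scores of 5.19 to 5.26 and 5.02 to 5.14 where the whole range was 4.98 to 6.25. The cold-inducible RNA-binding genes Cirbp and Rbm3 both passed (edgeR adjusted p = 5.08e-07 and 8.38e-06). Their score was 6.76 to 6.86 in R62850 and 6.09 to 6.34 in R63494, which did not overlap. R62850 overlapped R63496 (6.664 to 6.855) in it, and R63494 overlapped R62848 (5.852 to 6.114) and R63500 (5.938 to 6.224).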

How the data were processed

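The data are a table of read counts per gene for 17 RNA-seq libraries of mouse bile duct. The deposited values used here are whole counts, not normalized, with the authors' gene positions and lengths. Per the submitters' processing notes, the build was mm10 and the tools were featureCounts, STAR 2.6.1c and edgeR 3.40.2, with no role stated. The release of the annotation, strand use in counting and the treatment of reads that match several genes are not given there. A further 17 columns of per-sample values were not used. Count columns matched no sample title and were tied to the single group only.

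Genes were kept with filterByExpr of edgeR 4.0.16 and an intercept-only design in R 4.3.3 (15795 genes), scaled by TMM and given as CPM or, with 2 as prior count, on the log2 scale. RPKM came from counts and gene lengths. Codes were compared by edgeR's quasi-likelihood F test with Benjamini-Hochberg adjustment over all tested genes. The test and the relations were tested on simulated data. Alternatives were DESeq2 1.42.0, limma-voom 3.58.1, other scalings, no filter, and leaving out each library or code.

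Named are all inducible genes, Hsf1 and Hsf2, and in each other class the 3 tested members of highest median RPKM and the 2 of largest SD. From the list of 38 the 3 highest and the 3 of largest SD are named, except 1 gene that is not reported here. Other members that passed, or that complete a class, were named after their values were seen. The members and lists were chosen with earlier results of these data known, and the classes follow textbook location. Promoters and paralogue transcripts came from RefSeq (GRCm38.p6) and GENCODE M21. Of the 78 identifiers, 77 were in GENCODE M21.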

Additional observations from a re-analysis of the deposited data

How the results depend on the processing

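The count of members that differed between codes was 40. It was 39 to 42 under other tests, scalings and no filter, 36 to 43 with each library left out and 34 to 41 with each code left out. Of 29 named members that passed, 23 passed in all 27 alternatives, while Dnajc22 was lost in 18, Dnajb13 in 16, Hspb2 in 2, and Hsf1, Hspa12a and Dnajb2 in 1 each. Dnajc5 passed in 5, Dnajc27 in 3, and Dnaja2 and Hspa9 in 1 each. The medians of the inducible score, of its share of counts and of the paralogue ratios moved by less than their SD between libraries under the alternatives run. The range of the score did so too. This margin is wide, as the SD of the score was 1.06 log2 units, so smaller shifts would not be seen. The relation with the constitutive score passed with relative log expression scaling (r = 0.808) and with no filter (r = 0.815). It also passed in 5 of 17 fits with 1 library left out, over which r ran from 0.479 (without R63500_2) to 0.85. The fits without R63494_1 and without R63494_2 are both among these 5. They are the same fit, because the library left in that code centres to 0. The ER relation changed sign with relative log expression scaling (r = 0.018) and with no filter (r = 0.055). It ran from -0.061 to 0.096 with 1 library left out. Without code R63500, an alternative chosen after seeing the data, it also changed sign (r = 0.088). Leaving out that code gives the same r as leaving out R63500_1 and R63500_2, because R63500_3 alone centres to 0. It is therefore no further check. The other DNAJC relation was -0.03 with no filter and -0.238 without R63500, and 0.088 to 0.473 with 1 library left out. Without R63500 the cold-inducible, Hsf1 and library total relations were 0.039, -0.198 and 0.078. With 1 library left out they ran from -0.514 to 0.285, from -0.602 to 0.661 and from -0.381 to -0.101, and those with the mitochondrial score and the immediate early genes from 0.239 to 0.649 and from 0.691 to 0.951, each passing once. The cause of these changes was not tested. No paired analysis was possible because the labels give 1 group and the columns carry no replicate number shared between groups. Counts of genes with few reads, such as Dnajc27, Dnajb13 and Hspb2, limit how finely their codes can be told apart.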

Other observations

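Over the 71 tested members alone, libraries of the same code resembled each other, with a Pearson r of log2 CPM of 0.958 to 0.997 in 16 pairs, against 0.886 to 0.995 in 120 pairs of different codes. These values describe correlations across genes, which are not independent replicates. For 13 of the 17 libraries the closest library over the members had the same code.

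Genes least like the inducible score within codes, at a median CPM of at least 10 and outside the members, were Ccpg1 (r = -0.906), a receptor for autophagy of the ER, Arap1 (r = -0.899), Smad1 (r = -0.888), Sgms1 (r = -0.887) and Ube2h (r = -0.885), over 17 libraries and with no p.

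All members together held 0.782% to 1.60% of the counts of a library, with a median of 1.06%. The constitutive class took 0.259% to 0.490% and the ER class 0.270% to 0.495%, so that even at its highest the inducible class (0.467%) took a share of like size.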
